A study of Mus musculus with 51 samples.

Results

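Aminoacyl-tRNA synthetases attach each amino acid to its transfer RNA, the step that supplies charged tRNA to the ribosome. Their 36 genes were taken by gene symbol from 6 deposited expression tables that together list 14606 genes. Of the 36, 20 encode the cytosolic enzymes and 16, whose symbols end in 2, the mitochondrial ones. All 36 were listed in ileum, white adipose tissue (WAT) and muscle, 35 in duodenum and in jejunum, where Sars2 is not listed, and 30 in liver, where Vars, Aars2, Cars2, Pars2, Sars2 and Vars2 are not listed. A gene is listed only where the authors' filter on low values kept it, so a member that is not listed has no value here.

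The samples were tissues of male C57Bl6 mice with diet-induced obesity, taken 9 weeks after surgery, which was either Roux-en-Y gastric bypass (RYGB) or sham. Both groups received an elemental liquid diet and then went back by steps to a high fat diet, sham mice were given less food to keep their weight level with that of the RYGB mice, and all were fasted overnight. Bypass and food restriction in sham mice therefore cannot be told apart. There were 4 RYGB and 5 sham libraries of duodenum, 4 and 5 of jejunum, 2 and 5 of ileum, 5 and 4 of liver, 4 and 5 of subcutaneous WAT, and 4 and 4 of gastrocnemius muscle, 51 in all, from 5 RYGB and 5 sham animals. Gut samples were villi scraped off after cold EDTA, and the labels do not say from which surgical limb the jejunum came. The source field of the muscle RYGB libraries names a sham operation, while their titles and surgery field name RYGB, which was followed.

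Most cytosolic synthetases serve 1 amino acid each. Eprs joins the glutamate and proline enzymes in a single protein, Farsa and Farsb are the subunits of the phenylalanine enzyme, and Gars and Kars encode both the cytosolic and the mitochondrial form of the glycine and lysine enzymes. Eprs, Iars, Lars, Mars, Qars, Rars, Kars and Dars sit together in the multisynthetase complex on the scaffold proteins Aimp1, Aimp2 and Eef1e1. Mitochondrial synthetases are made from nuclear genes and charge the tRNAs used to translate the respiratory chain subunits encoded in mitochondrial DNA. Mitochondria need no glutamine enzyme of their own, because glutamate placed on the glutamine tRNA is amidated there by the complex of Gatb, Gatc and Qrsl1. Several cytosolic synthetase genes are known targets of ATF4, the transcription factor of the amino acid response.

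The values are CPM, which set each gene's reads against its library's total. Sums per library lay between 978879 and 993560.1 CPM, and the depth behind each value is unknown. Each difference is given as RYGB minus sham, in log2(CPM + 1), with its standard error (SE), a scale that understates changes where CPM is low. P-values are two-sided and from limma, adjusted by Benjamini and Hochberg over all genes of the table. "Rose" and "fell" are used of members with an adjusted p below 0.05. In bulk tissue, fewer cells of a type and less RNA per cell cannot be told apart. The tissues' own markers were present: all 8 enterocyte markers were listed in each gut segment, all 8 hepatocyte markers in liver, all 8 adipocyte markers in WAT and all 8 fibre markers in muscle. Libraries stood apart in several tissues. In the liver, sham libraries 3 and 4 listed 255 and 240 genes at 0 and RYGB library 1 listed 179, against 16 to 60 in the other liver libraries. RYGB library 1 of liver also held 2536 CPM of erythroid markers, against 149.8 to 856 CPM in the others. In the ileum, sham library 4 held 44220 CPM of Paneth cell markers, and sham library 5 held 2157 CPM of skeletal muscle markers. In the duodenum, RYGB library 2 and sham libraries 1, 2 and 3 held more than 1% pancreatic acinar transcripts.

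**Figure D1:**
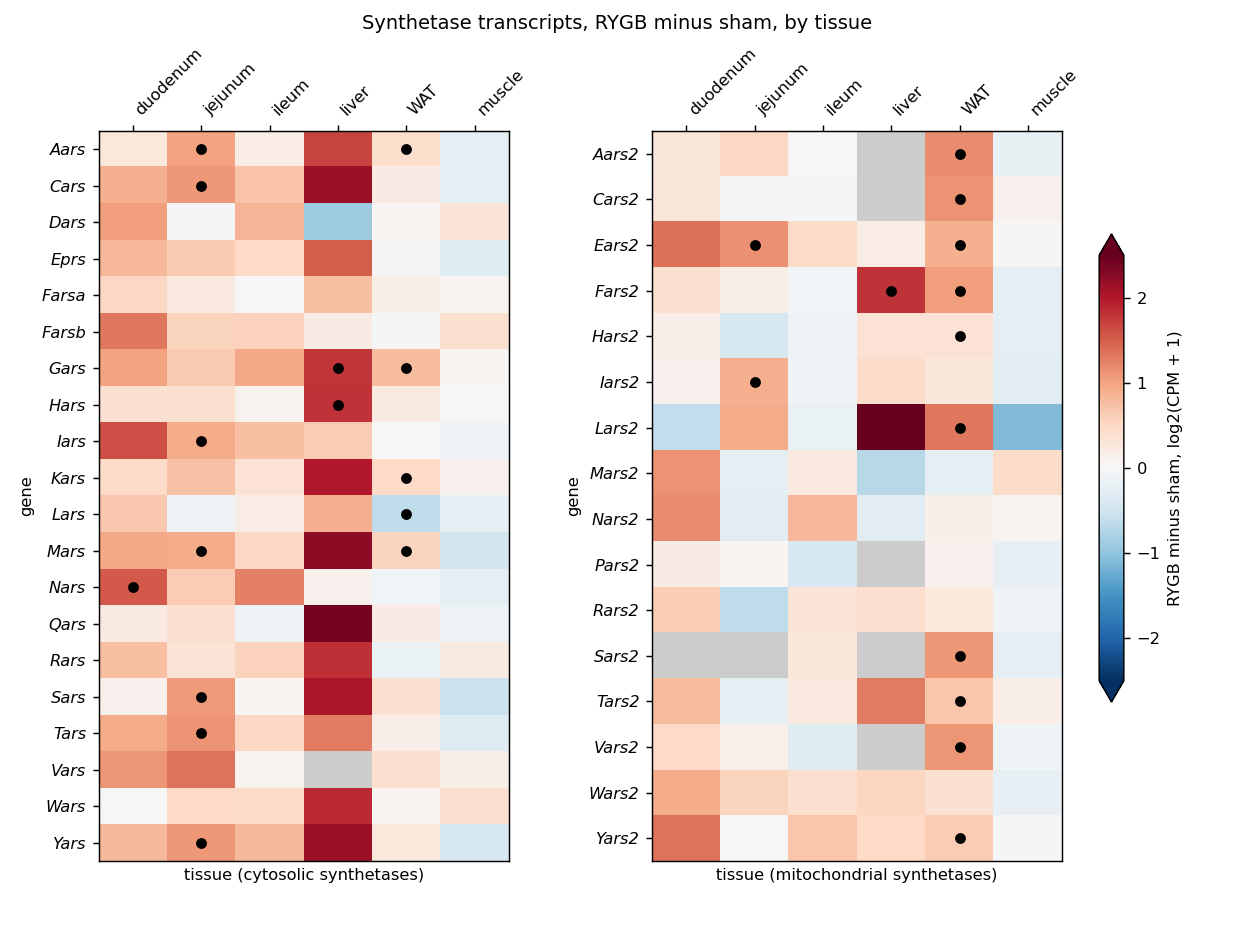
Log2 difference, RYGB minus sham, of each cytosolic (left) and mitochondrial (right) synthetase in the 6 tissues, with red for higher in RYGB, grey for not listed and a dot where the adjusted p was below 0.05. The dots of WAT lie mainly in the mitochondrial panel, with 10 against 5 in the cytosolic one, and those of jejunum mainly in the cytosolic panel, with 7 against 2.

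Between genes, levels were compared per kilobase of exon, with the length taken over all annotated exons of the gene. In WAT the median cytosolic member had 12.3 CPM per kilobase in RYGB and 10.5 in sham libraries, and the median mitochondrial member 4.10 in RYGB and 2.48 in sham libraries. In jejunum the cytosolic median was 9.00 CPM per kilobase in RYGB and 4.42 in sham libraries, and the mitochondrial median 1.43 in RYGB and 0.978 in sham libraries. The most abundant member per kilobase differed by tissue. Nars, the asparagine enzyme, led in jejunum at 71.2 ± 32.8 CPM per kilobase in RYGB and 42.1 ± 3.75 in sham libraries (SD). Gars, the glycine enzyme, led in WAT at 72.5 ± 15.6 CPM per kilobase in RYGB and 40.97 ± 3.26 in sham libraries. Dars, the aspartate enzyme, led in liver at 51.5 ± 25.8 CPM per kilobase in RYGB and 86.6 ± 12.4 in sham libraries. In muscle the leading members lay close together, with Dars at 46.8 ± 17.8 and Farsb at 45.7 ± 6.29 CPM per kilobase in RYGB libraries and Nars at 47.3 ± 4.69 and Lars2 at 45.4 ± 5.81 in sham libraries, so that neither pair differed beyond its spread. The lowest member in RYGB libraries was Mars2, the mitochondrial methionine enzyme, in WAT, jejunum, ileum and liver. Lars2, which charges mitochondrial leucine tRNA, was the highest mitochondrial member in RYGB libraries of WAT, ranking second of 36 at 39.8 ± 12.2 CPM per kilobase. Iars2, at 23.55 CPM per kilobase, and Hars2, at 17.3, also lay above the cytosolic median in these libraries.

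In WAT, 14 synthetase genes rose after RYGB and 1 fell, out of 36. Of the 16 mitochondrial members 10 rose and none fell, by 0.36 to 1.32 on the log2 scale: Aars2, Cars2, Ears2, Fars2, Hars2, Lars2, Sars2, Tars2, Vars2 and Yars2. Of the 20 cytosolic members Aars, Gars, Kars and Mars rose, and Lars, the leucine enzyme, fell. Over all 12690 genes of the table, 14.3% rose and 26.3% fell, with a median log2 difference of −0.16, against a median of 0.67 for the mitochondrial and 0.19 for the cytosolic members. Of the members 15 had all RYGB libraries above all sham libraries and 1 had all below, against 11.7% and 22% of all genes. Median-of-ratios scaling moved the median of all genes by 0.16. With it 2681 genes were higher and 2593 lower, against 1812 higher and 3341 lower without it. All 15 member calls kept their direction, and the cytosolic Sars, Tars and Vars and the mitochondrial Rars2 and Wars2 rose as well.

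Lars2 (chr9:123366927-123462666, plus strand, GRCm38) had the largest difference among the members in WAT. It stood at 386.7, 323.1, 422.2 and 634.5 CPM in the RYGB libraries, against 120.9, 233.3, 218.0, 128.6 and 184.8 CPM in the sham libraries. Every RYGB value lay above every sham value, and the log2 difference was 1.32 ± 0.25 (SE, adjusted p = 0.0026). Its cytosolic counterpart Lars went the other way. Lars had 38.3, 26.0, 43.1 and 38.6 CPM in RYGB libraries, against 55.9, 63.3, 54.9, 56.8 and 50.3 CPM in sham libraries. The groups did not overlap there either, with a log2 difference of −0.63 ± 0.15 (adjusted p = 0.00884).

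Aars2 (chr17:45506841-45520843, plus strand), the mitochondrial alanine enzyme, had 16.7, 17.3, 10.8 and 21.7 CPM in RYGB libraries, against 6.5, 8.0, 5.7, 5.6 and 7.4 CPM in sham libraries. Vars2 (chr17:35655634-35667592, minus strand), for valine, gave 23.3, 19.3, 17.1 and 26.7 CPM after RYGB and 9.0, 10.3, 9.5, 7.3 and 11.3 CPM after sham. The groups were apart for both genes, by 1.18 ± 0.21 (adjusted p = 0.0017) for Aars2 and 1.10 ± 0.18 (adjusted p = 0.00116) for Vars2. Fars2 (chr13:36117412-36726280, plus strand), the mitochondrial phenylalanine enzyme, measured 42.0, 42.0, 28.4 and 41.4 CPM in the RYGB libraries and 18.1, 20.9, 13.6, 16.0 and 21.9 CPM in the sham libraries. RYGB library 3 was the lowest of its group but still above all sham libraries, and the log2 difference was 1.05 ± 0.18 (adjusted p = 0.00155). Of the exon bases of Fars2, 10.7% overlap exons of genes on the other strand. The use of strand in counting was not given in the sources used here. Lyrm4, a neighbour so placed, differed by −0.01 ± 0.17 (adjusted p = 0.977). Such overlaps cover 8.5% of the exon bases of Vars2 and 5.8% of those of Cars2.

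Cars2, for cysteine, had 10.8, 14.7, 9.5 and 21.5 CPM in RYGB libraries, against 5.0, 6.9, 4.4, 4.8 and 7.9 CPM in sham libraries. Sars2, for serine, was the least abundant member in sham WAT per kilobase, at 6.9, 4.7, 3.3 and 7.6 CPM in RYGB libraries and 2.5, 2.7, 1.5, 1.8 and 1.8 CPM in sham libraries. Neither gene's groups overlapped, and the differences were 1.12 ± 0.25 (adjusted p = 0.00601) for Cars2 and 1.08 ± 0.24 (adjusted p = 0.00576) for Sars2. Ears2, the mitochondrial glutamate enzyme, which also loads the glutamine tRNA before amidation, measured 14.2, 19.8, 11.2 and 17.9 CPM after RYGB and 6.7, 8.9, 8.0, 6.7 and 9.6 CPM after sham. Its groups were apart by 0.88 ± 0.20 (adjusted p = 0.00528).

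Tars2, for threonine, stood at 40.5, 30.4, 38.2 and 50.9 CPM in the RYGB libraries, against 20.5, 27.8, 22.7, 23.0 and 26.1 CPM in the sham libraries. For Yars2, the tyrosine enzyme, the RYGB libraries had 20.1, 21.5, 16.5 and 22.3 CPM and the sham libraries 10.5, 13.5, 11.6, 12.2 and 14.9 CPM. Both sets of groups were apart, with log2 differences of 0.70 ± 0.16 (adjusted p = 0.00691) for Tars2 and 0.64 ± 0.15 (adjusted p = 0.00778) for Yars2. Hars2, for histidine, differed least of the 10, at 71.3, 73.8, 71.1 and 79.9 CPM in RYGB libraries and 50.6, 59.5, 54.4, 57.5 and 67.0 CPM in sham libraries. The groups did not overlap, and the difference of 0.36 ± 0.12 (adjusted p = 0.0338) lost its call without any 1 of RYGB library 4 or sham libraries 1 to 4, with adjusted p up to 0.0878. Hars2 and Hars start 197 bases apart on opposite strands of chromosome 18, and 4.6% of the exon bases of Hars2 overlap another gene. The 6 mitochondrial members that did not pass were Iars2, Mars2, Nars2, Pars2, Rars2 and Wars2. Of these, Wars2 and Rars2 had no overlap between groups, at 0.38 ± 0.15 (adjusted p = 0.0612) and 0.26 ± 0.12 (adjusted p = 0.115), and Mars2 was the only mitochondrial member with a negative difference, −0.23 ± 0.19 (adjusted p = 0.362).

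**Figure D2:**
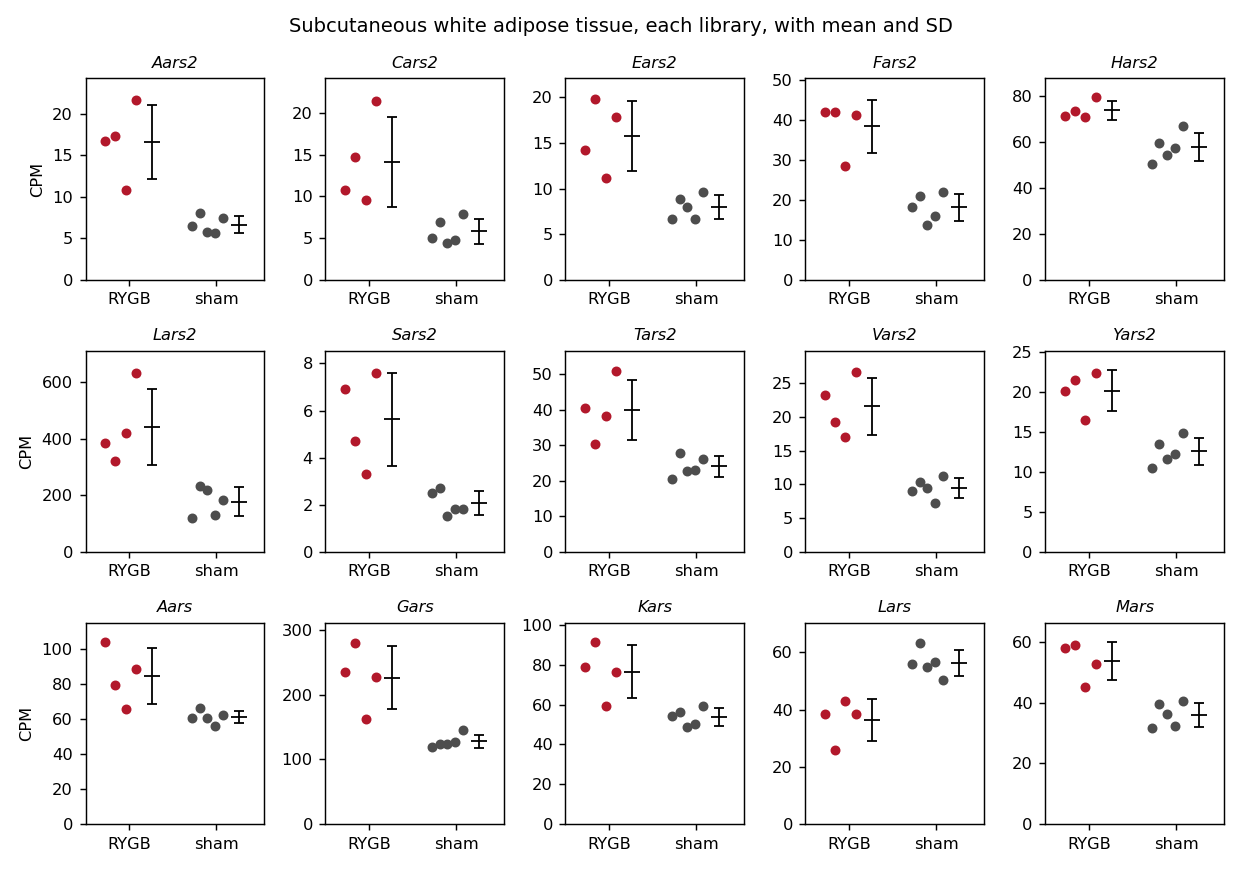
CPM of the 15 synthetase genes past the threshold in WAT, with a point for each library, RYGB (red, 4) and sham (grey, 5), and the mean ± SD beside each group. RYGB points lie above all sham points in every panel except Aars and Kars, where the groups overlap, and Lars, where they lie below.

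Among the cytosolic members in WAT, Gars rose the most. It had 234.9, 280.2, 162.0 and 227.4 CPM in the RYGB libraries, against 119.2, 123.9, 123.3, 127.4 and 145.2 CPM in the sham libraries. The groups were apart by 0.79 ± 0.16 (adjusted p = 0.00341). Mars, the methionine enzyme that also charges the initiator tRNA, measured 58.0, 58.9, 45.1 and 52.8 CPM after RYGB and 31.6, 39.4, 36.1, 32.3 and 40.4 CPM after sham, again with no overlap (0.56 ± 0.13, adjusted p = 0.00734). Kars, for lysine, gave 78.8, 91.5, 59.1 and 76.2 CPM in RYGB libraries and 54.1, 56.2, 48.7, 50.1 and 59.4 CPM in sham libraries. For Aars, for alanine, these were 104.3, 79.5, 66.0 and 88.9 CPM after RYGB and 60.7, 66.3, 60.4, 56.3 and 62.4 CPM after sham. In both genes RYGB library 3 fell inside the sham range, and the differences were 0.49 ± 0.14 (adjusted p = 0.0191) for Kars and 0.44 ± 0.14 (adjusted p = 0.0284) for Aars. The call of Kars was lost without sham library 3 (adjusted p = 0.0513) or 4 (adjusted p = 0.0507), and that of Aars without any 1 of 5 libraries, RYGB 1 and 4 and sham 1, 3 and 4, with adjusted p up to 0.0732. Of the exon bases of Aars, 15.1% are shared with other genes' exons. The other 15 cytosolic members did not pass, and their differences lay between −0.17 for Rars and 0.42 for Vars.

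Of the 8 enzymes of the multisynthetase complex, Kars and Mars rose in WAT, Lars fell and 5 did not pass. Of the 12 cytosolic members outside it, Aars and Gars rose and 10 did not pass. None of the 3 scaffold genes passed. Eprs, the largest enzyme of the complex, was nearly level at 139.8 CPM in RYGB and 134.8 CPM in sham libraries (0.03 ± 0.14, adjusted p = 0.869). By structural class, 5 of 9 mitochondrial enzymes of class I and 5 of 7 of class II rose.

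For 13 amino acids there is a cytosolic and a mitochondrial gene of matching name. In WAT the mitochondrial gene had the higher log2 difference in 12 of the 13 pairs, with Mars and Mars2 as the exception, and the median gap was 0.43. The widest gap was 1.95, between Lars2 and Lars, and the next 0.91, between Cars2 and Cars. In jejunum the cytosolic gene had the higher difference in 10 of 12 pairs, with a median gap, mitochondrial minus cytosolic, of −0.95. The exceptions there were Lars and Wars. The 2 tissues share animals, and no test was made of these gaps.

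**Figure D3:**
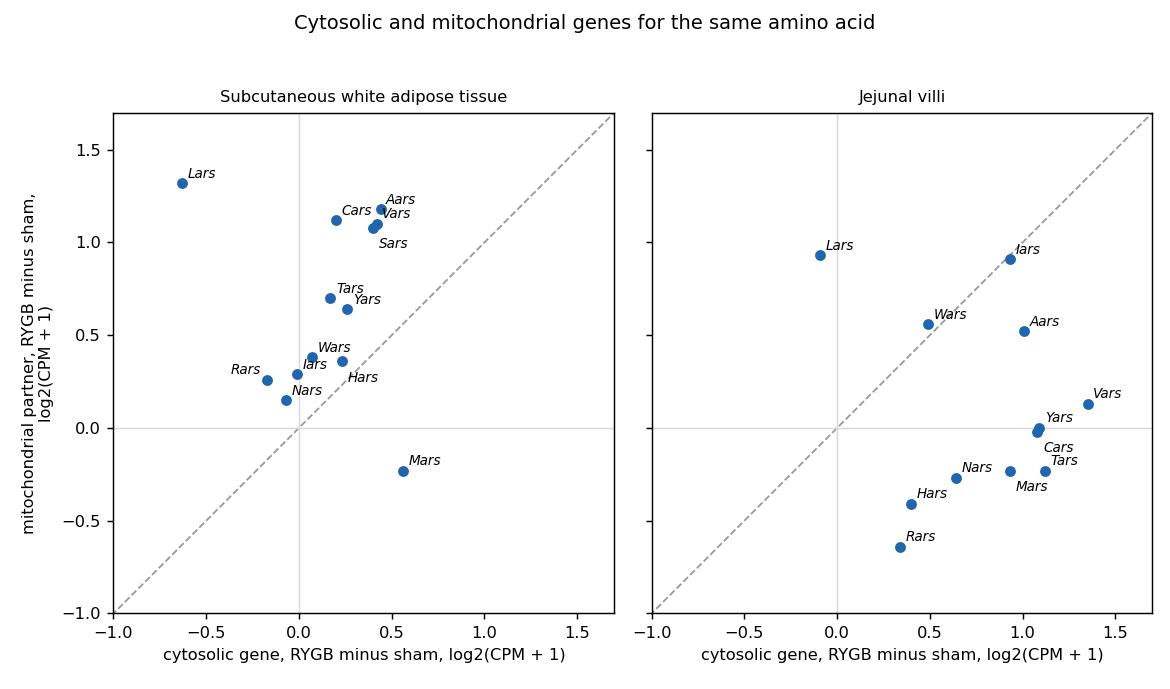
Log2 difference, RYGB minus sham, of the mitochondrial gene against that of the cytosolic gene for the same amino acid, labelled by the cytosolic gene, in WAT (left, 13 pairs) and jejunum (right, 12 pairs). Points above the dashed line of equality have the higher difference in the mitochondrial gene, 12 of 13 in WAT and 2 of 12 in jejunum.

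Other genes of translation and tRNA charging were read in WAT beside the 14.3% of all genes that rose and the 26.3% that fell. Of 11 listed mitochondrial translation factors 6 rose and none fell, with a median of 0.41. Tufm, the mitochondrial elongation factor Tu, averaged 17.8 CPM in RYGB and 4.86 CPM in sham libraries (1.56 ± 0.28, adjusted p = 0.00204), and Gfm1, the mitochondrial elongation factor G, averaged 77.1 CPM after RYGB and 38.1 CPM after sham (0.97 ± 0.16, adjusted p = 0.00123). Of 11 other tRNA charging factors 3 rose and 1 fell. Gatb and Qrsl1, of the amidating complex, rose by 1.06 ± 0.15 (adjusted p = 0.000644) and 0.76 ± 0.23 (adjusted p = 0.0204). Trnt1, which adds the CCA end to tRNAs, fell by 0.45 on the log2 scale (SE 0.13, adjusted p = 0.0216). Of 25 cytosolic translation factors 5 rose and 1 fell, and of 22 ribosome biogenesis genes 3 rose and 2 fell. In both lists the share that rose was close to that of all genes, and the share that fell was smaller. Of 28 amino acid response genes 6 rose and 4 fell, among them Psph, a serine synthesis enzyme (1.43 ± 0.31, adjusted p = 0.00525), and Trib3, an inhibitor of ATF4 (−1.44 ± 0.26, adjusted p = 0.002). Wars, whose human counterpart is induced by interferon, stood at 0.07 ± 0.17 (adjusted p = 0.763), while of 22 interferon response genes 5 rose and 2 fell.

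The summed adipocyte and leukocyte markers overlapped between the groups in WAT. Pancreatic acinar markers, 2 of 21 listed, did not, at 2.9 to 5.7 CPM in RYGB and 9.1 to 17.5 CPM in sham libraries. Summed adipocyte markers ran from 21060 to 40420 CPM in RYGB and from 19290 to 23610 CPM in sham libraries, of which Pck1 and Retn rose and Lep fell. Summed leukocyte markers, 8 of 10 listed, ran from 404 to 1323 CPM in RYGB and from 377 to 598 CPM in sham libraries, and of these Cd68 fell and none rose. The 7 markers of mammary or skin epithelium were not listed. The median log2 deviation from the genes' means, of long genes minus that of short genes by exon length, was −0.70 to 0.05 in RYGB and 0.18 to 0.36 in sham libraries, with no overlap. With each library's trend on exon length removed, the 15 calls remained and 9 more members rose, giving 23 higher and 1 lower. These 9 were the cytosolic Eprs, Qars, Sars, Tars, Vars and Yars and the mitochondrial Iars2, Nars2 and Wars2. Mitochondrial members thus made up less of the calls than in the main fit. Over all genes, removal of the length trend gave 2441 higher and 2392 lower, against 1812 and 3341, and moved the median by 0.17. The part of the cell type markers in these results was not tested.

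In jejunum 9 of 35 listed members rose after RYGB and none fell, against 6.32% of 11021 genes that rose and 6.29% that fell. Of the 20 cytosolic members Aars, Cars, Iars, Mars, Sars, Tars and Yars rose. Of the 15 listed mitochondrial members Ears2 and Iars2 rose. The median log2 difference was 0.66 over the cytosolic and 0.04 over the mitochondrial members, against 0.08 over all genes. With median-of-ratios scaling, and with the exon-length trend removed, Hars2, the mitochondrial histidine enzyme, passed as lower, and without RYGB library 4 Rars2 did. In 10 members all RYGB libraries lay above all sham libraries and in none below, against 7.53% and 6.75% of all genes.

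Tars (chr15:11382301-11399665, minus strand, GRCm38), the threonine enzyme, had 41.3, 43.4, 84.6 and 54.1 CPM in RYGB libraries, against 24.2, 27.4, 16.1, 29.2 and 25.6 CPM in sham libraries. Cars (chr7:143557230-143600090, minus strand), for cysteine, gave 14.3, 31.1, 20.6 and 31.4 CPM after RYGB and 9.4, 10.7, 10.7, 10.6 and 10.9 CPM after sham. The groups were apart in both, by 1.12 ± 0.24 (adjusted p = 0.0176) for Tars and 1.08 ± 0.23 (adjusted p = 0.0173) for Cars, and both calls held with each library left out. Sars, for serine, measured 43.7, 34.4, 47.4 and 51.7 CPM in RYGB libraries and 21.1, 24.0, 11.8, 22.1 and 27.5 CPM in sham libraries. Yars, the tyrosine enzyme, measured 13.5, 21.2, 18.4 and 29.2 CPM after RYGB and 10.7, 10.9, 5.5, 9.0 and 8.9 CPM after sham. Neither overlapped, at 1.06 ± 0.23 (adjusted p = 0.0189) for Sars and 1.09 ± 0.25 (adjusted p = 0.0215) for Yars. Without RYGB library 3 the adjusted p of Sars was 0.0519, and without sham library 4 that of Yars was 0.052.

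Aars stood at 51.5, 94.3, 104.8 and 118.4 CPM in the RYGB libraries, against 39.8, 44.6, 38.6, 48.6 and 45.7 CPM in the sham libraries. RYGB library 1 lay just above the highest sham library, and the other RYGB libraries were well above it (1.01 ± 0.22, adjusted p = 0.019). The adjusted p was 0.0562 without RYGB library 3 and 0.0521 without sham library 1. Iars, for isoleucine, had 14, 23.5, 25.4 and 31.6 CPM in RYGB libraries and 11.9, 11.1, 10.2, 11 and 13.3 CPM in sham libraries. For Mars the RYGB libraries had 10.4, 15.2, 12.5 and 22.0 CPM and the sham libraries 6.6, 6.8, 6.1, 6.9 and 9.8 CPM. Each had its lowest RYGB library, number 1, barely above the highest sham library. Both differed by 0.93, with SE 0.22 and adjusted p = 0.023 for Iars and SE 0.23 and adjusted p = 0.0281 for Mars. Each of these 2 calls was lost without any 1 of RYGB library 3 and sham libraries 1 to 4, with adjusted p up to 0.0637 for Iars and 0.0705 for Mars.

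Iars2 (chr1:185284726-185329396, minus strand, GRCm38), the mitochondrial isoleucine enzyme, had the smallest p of all members in jejunum. Its values were 32.8, 30.5, 41.2 and 36.6 CPM in RYGB libraries, against 21.6, 15, 17.2, 19.8 and 17.8 CPM in sham libraries. The groups were apart by 0.91 ± 0.16 (adjusted p = 0.00865), and the call held with each library left out. Exons of other genes on the opposite strand cover 24.2% of its exon bases. The gene across from it, Rab3gap2, stood at −0.40 ± 0.13 in jejunum (adjusted p = 0.0726). Ears2 had 6.3, 9.6, 3.6 and 10.0 CPM in RYGB libraries and 3.9, 2.6, 2.3, 1.9 and 2.5 CPM in sham libraries. RYGB library 3 lay inside the sham range, and the difference was 1.14 ± 0.29 (adjusted p = 0.0289). The call was lost without any 1 of RYGB library 1 and sham libraries 2 to 5, with adjusted p up to 0.0746.

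**Figure D4:**
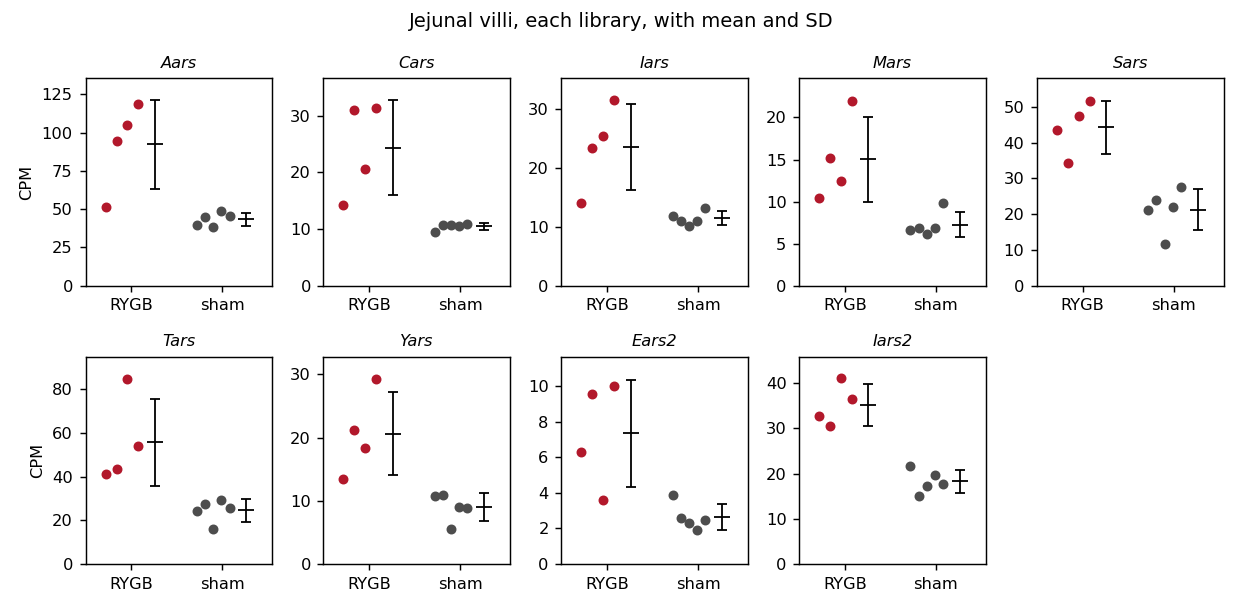
CPM of the 9 synthetase genes past the threshold in jejunal villi, with a point for each library, RYGB (red, 4) and sham (grey, 5), and the mean ± SD beside each group. The groups are apart in every panel except Ears2, where the lowest RYGB library had 3.6 CPM and the highest sham library 3.9 CPM.

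Of the 8 multisynthetase complex enzymes Iars and Mars rose in jejunum, and of the 12 cytosolic members outside the complex Aars, Cars, Sars, Tars and Yars. Eef1e1, a scaffold of the complex, rose as well, at 3.70 CPM in RYGB and 1.84 CPM in sham libraries (0.71 ± 0.21, adjusted p = 0.0452). Vars, for valine, had the largest cytosolic difference without passing the test, 1.35 ± 0.48 (adjusted p = 0.0894). Nars and Gars, the most abundant members per kilobase, averaged 310.0 and 108.9 CPM in RYGB libraries and 183.5 and 64.1 CPM in sham libraries, and their groups overlapped (adjusted p = 0.129 for Nars and 0.144 for Gars). Dars and Lars were level, at −0.02 and −0.09. Among mitochondrial members Rars2, for arginine, stood lowest at −0.64 ± 0.23 (adjusted p = 0.0839).

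Of 24 listed amino acid response genes in jejunum 9 rose and 1 fell, with a median of 0.66. Ddit4, an inhibitor of mTORC1, averaged 29.9 CPM in RYGB and 4.86 CPM in sham libraries (2.36 ± 0.32, adjusted p = 0.00344). Slc7a5, a carrier of large neutral amino acids, averaged 4.38 CPM after RYGB and 0.84 CPM after sham (1.51 ± 0.28, adjusted p = 0.0101), and the transcription factor gene Atf5 rose by 1.64 ± 0.30 (adjusted p = 0.0107). Mthfd2, a mitochondrial folate enzyme, rose by 1.44 ± 0.30 (adjusted p = 0.0167). Of 25 cytosolic translation factors 6 rose, led by Eif4ebp1, the inhibitor of cap-binding eIF4E (2.11 ± 0.41, adjusted p = 0.0121). Of 11 mitochondrial translation factors Gfm1 alone rose (0.72 ± 0.19, adjusted p = 0.0342). None of the 10 listed tRNA charging factors and none of the 19 ribosome biogenesis genes passed. Of 22 interferon response genes 4 fell, among them Ifit1 (−1.87 ± 0.33, adjusted p = 0.00922), and Wars stood at 0.49 ± 0.23 (adjusted p = 0.183).

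Paneth cell markers moved with the groups in jejunum, whereas the summed crypt and dividing cell markers overlapped. All 4 listed Paneth cell markers, of 6 in the list, rose, and their sum ran from 172.8 to 392.5 CPM in RYGB and from 29.7 to 114.1 CPM in sham libraries. Defa17 and Defa21 were not listed. None of 7 listed crypt and dividing cell markers passed, and their sum ran from 51.2 to 255.6 CPM in RYGB and from 34.2 to 70.9 CPM in sham libraries. Enterocyte markers summed to 43990 to 52900 CPM in RYGB and 43930 to 67440 CPM in sham libraries, and of the 8 Lct, lactase (−1.69 ± 0.36, adjusted p = 0.0183), and Anpep, an aminopeptidase (−1.13 ± 0.31, adjusted p = 0.039), fell and none rose. The part of these cells in the synthetase differences was not tested.

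Promoter sequence was available for 27 of the 36 members. The stretches are shown because their genes rose in jejunum, WAT or liver, and all lie before the start site given by RefSeq (GRCm38.p6), though in GENCODE that of Aars falls inside the gene span and the ends of those of Tars and Cars2 reach into it. The motif TGATGNAA, the core of the composite element bound by C/EBP and ATF proteins in genes of the amino acid response, was found in the 250 bases before the start, on either strand, in 3 of 13 cytosolic and 0 of 14 mitochondrial members. Of 32851 mouse promoters 3.45% hold it. Here and below a member was counted if any of its promoters held the motif, so a count of genes stands beside a share of single promoters. The 3 genes were Aars, which rose in jejunum and WAT, Tars, which rose in jejunum, and Gars, which rose in liver and WAT. Capitals mark the match, on the reverse strand in each.
Aars, chr8:111033694-111033773, plus strand: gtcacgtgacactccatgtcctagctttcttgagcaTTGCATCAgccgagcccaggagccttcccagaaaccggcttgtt
Gars, chr6:55037921-55038000, plus strand: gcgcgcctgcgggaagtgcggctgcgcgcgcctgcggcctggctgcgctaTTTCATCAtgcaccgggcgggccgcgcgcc
Tars, chr15:11399659-11399738, minus strand: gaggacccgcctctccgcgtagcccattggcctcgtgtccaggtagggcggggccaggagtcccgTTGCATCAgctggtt

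The E-box CACGTG was found in Aars, Farsb and Iars, against 6.02% of all promoters, and it also lies in the Aars stretch above without overlapping TGATGNAA. The motif CTTCCGG, which contains the core bound by ETS factors, was found in 4 of 13 cytosolic members, Farsa, Gars, Mars and Sars, and in 3 of 14 mitochondrial members, Cars2, Mars2 and Sars2, against 6.91% of all promoters. Mars, Gars, Cars2 and Sars2 rose in WAT, and Mars2 had a negative difference there. The 2 mitochondrial stretches of genes that rose are given with the match in capitals. A match describes these letters and is not a measured binding site.
Cars2, chr8:11550772-11550851, minus strand: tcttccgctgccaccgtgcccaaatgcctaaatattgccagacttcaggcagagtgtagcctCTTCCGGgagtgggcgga
Sars2, chr7:28741777-28741856, plus strand: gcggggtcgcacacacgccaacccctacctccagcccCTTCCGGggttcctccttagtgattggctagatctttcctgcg

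In liver 3 of 30 listed members rose, the cytosolic Gars and Hars and the mitochondrial Fars2, against 2.03% of 10285 genes that rose and 2.6% that fell. The median log2 difference was 1.79 over the 19 cytosolic and 0.45 over the 11 mitochondrial members, against 0.26 over all genes. Median-of-ratios scaling moved the median of all genes by −0.17. All RYGB libraries lay above all sham libraries in 4 members, these 3 and Tars, and below in Mars2, against 4.34% and 8.01% of all genes. Gars had 39.3, 48.6, 83.1, 83.3 and 37.5 CPM in RYGB libraries, against 27.6, 14.7, 6.4 and 19.4 CPM in sham libraries. Hars, for histidine, gave 23.0, 33.5, 42.7, 32.2 and 16.4 CPM after RYGB and 12.3, 13.7, 3.0 and 5.2 CPM after sham. Fars2 stood at 7.2, 4.3, 18.0, 10.0 and 3.8 CPM in the RYGB libraries and at 2.5, 1.4, 0.9 and 1.2 CPM in the sham libraries. No groups overlapped in these genes, although 8.0% of the exon bases of Hars lie in exons of Hars2, and the differences were 1.79 ± 0.42 (adjusted p = 0.0439) for Gars, 1.80 ± 0.45 (adjusted p = 0.0468) for Hars and 1.80 ± 0.46 (adjusted p = 0.0477) for Fars2.

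With each liver library left out in turn, the log2 differences ran from 1.42 to 2.07 for Gars, 1.45 to 2.07 for Hars and 1.51 to 2.0 for Fars2. The 3 liver calls were less steady. Each was lost without any 1 of RYGB libraries 2, 3 and 4 and sham libraries 2, 3 and 4, with adjusted p up to 0.15 for Gars, 0.163 for Hars and 0.166 for Fars2. These omissions left 3 to 7 genes higher and 0 to 8 lower in the whole table, against 209 and 267 in the main fit. Without RYGB library 1 there were 16 members higher and 1 lower, and 1379 of all genes were higher and 874 lower. RYGB libraries 3 and 4 were the highest, and sham libraries 3 and 4 the lowest, in many other members. Qars, for glutamine, measured 3.3, 11.7, 36.9, 25.4 and 6.6 CPM in RYGB libraries and 4.8, 2.8, 0.3 and 0.4 CPM in sham libraries, with overlap (2.40 ± 0.68, adjusted p = 0.0568). For Eprs the RYGB libraries had 51.9, 132.6, 151.1, 136.3 and 76.5 CPM and the sham libraries 58.2, 47.8, 17.9 and 29.5 CPM, where only RYGB library 1 lay inside the sham range (1.52 ± 0.41, adjusted p = 0.0523). Lars2 had a wide spread, at 2.7, 14.8, 158.8, 139.8 and 5.1 CPM after RYGB and 7.5, 4.3, 0.5 and 2.1 CPM after sham (2.66 ± 1.06, adjusted p = 0.109). Dars, the most abundant member, was the only cytosolic one with a negative difference, at 354.7, 161.3, 104.5, 167.2 and 333.6 CPM in RYGB libraries and 362.3, 441.7, 312.4 and 392.3 CPM in sham libraries, with overlap (−0.89 ± 0.37, adjusted p = 0.117).

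**Figure D5:**
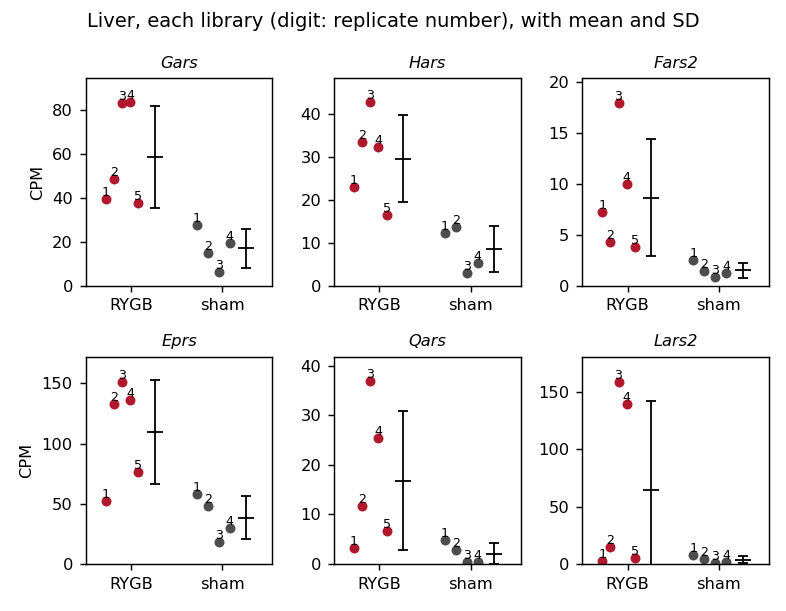
CPM of 6 synthetase genes in liver, with a point for each library labelled by its replicate number, RYGB (red, 5) and sham (grey, 4), and the mean ± SD beside each group. RYGB libraries 3 and 4 hold the highest values of Gars, Qars and Lars2, and sham library 3 holds the lowest value in all 6 panels.

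The same libraries stood apart in other measures. Long genes minus short genes gave a median log2 deviation of −0.552 in RYGB library 3 and −0.367 in RYGB library 4, against 0.563 in sham library 3 and 0.30 in sham library 4. With the length trend removed 8 members passed, all higher, the 3 calls among them, while 373 of all genes were higher and 462 lower, against 209 and 267. Hepatocyte markers summed to 49710 to 113200 CPM in RYGB and 46180 to 56970 CPM in sham libraries, and the 4 listed of 10 leukocyte markers to 50.3 to 617.5 CPM in RYGB and 28.4 to 118.1 CPM in sham libraries. The part of these measures in the synthetase values was not tested beyond that. Of 18 amino acid response genes in liver 2 rose and 1 fell. Asns, asparagine synthetase, averaged 15.3 CPM in RYGB and 0.425 CPM in sham libraries (3.38 ± 0.46, adjusted p = 0.0111), Atf4 itself 60.3 CPM after RYGB and 18.6 CPM after sham (1.67 ± 0.41, adjusted p = 0.045), and Vldlr, a lipoprotein receptor, fell by 3.34 on the log2 scale (SE 0.48, adjusted p = 0.0155). No gene passed in the other 6 lists of translation and related genes in liver.

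The difference between WAT and liver was tested on the 8 animals, 4 per operation, that gave both tissues, with the animal as a block. In 4 of 30 members the RYGB difference was lower in WAT than in liver, all cytosolic, against 9.51% of 9707 genes lower and 3.37% higher. They were Hars (−1.73 ± 0.51, adjusted p = 0.0433), Eprs (−1.57 ± 0.47, adjusted p = 0.0453), Qars (−2.40 ± 0.72, adjusted p = 0.0459) and Lars (−1.56 ± 0.47, adjusted p = 0.0472). Lars had 13.9, 24.8, 33.4, 24.6 and 17.5 CPM in RYGB livers and 21, 10.2, 8.0 and 9.3 CPM in sham livers, with overlap, while in WAT the RYGB libraries lay below the sham ones. The median of all genes was −0.42 in this comparison, and that of the members −1.56 for cytosolic and −0.16 for mitochondrial genes. With median-of-ratios scaling, which moves the median of all genes by 0.38, none of the 4 passed and Dars alone did, higher in WAT than in liver, while 620 genes were higher and 630 lower. None of the 4 passed with a pseudocount of 0.1 either. Without any 1 of the RYGB animals labelled R2, R3 and R4 and the sham animals labelled W3 and W15, none of the 4 passed either, and without W14 Hars alone did.

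No member passed for jejunum minus duodenum or for jejunum minus liver. In the first, over 8 animals, 1.88% of 10663 genes were lower and 0.525% higher, and 5 of 35 members had an unadjusted p below 0.05, against 2170 of all genes. Among these Nars2, the mitochondrial asparagine enzyme, stood at −1.30 ± 0.41 (adjusted p = 0.108). In the second, 0.0449% of 8918 genes were lower and 0.0224% higher, and 3 of 30 members had an unadjusted p below 0.05, against 1636 of all genes, with Qars at −1.61 ± 0.64 (adjusted p = 0.226). Both are larger shares of all genes than of the members, and a p that misses the threshold does not show that the tissues respond alike.

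In duodenum, the gut segment that the bypass takes out of the path of food, 1 of 35 listed members rose and none fell, against 0.128% of 10930 genes that rose and 0.22% that fell. It was Nars, with 448.9, 295.5, 297.1 and 347.8 CPM in RYGB libraries and 83.6, 99.2, 89.2, 129.0 and 233.4 CPM in sham libraries. All RYGB values were above all sham values (1.53 ± 0.29, adjusted p = 0.0487). The call was lost without any 1 of RYGB libraries 1, 2 and 4 and sham libraries 1 to 4, with adjusted p up to 0.171. It was also lost without the 4 libraries rich in pancreatic transcripts. That fit kept RYGB libraries 1, 3 and 4 and sham libraries 4 and 5. No gene of the table passed in it, so it cannot show whether the Nars call depends on the acinar-rich libraries. Farsb, a subunit of the phenylalanine enzyme, stood at 93.8, 52.7, 41.7 and 53.9 CPM in the RYGB libraries, against 25.4, 19.8, 16.7, 22.0 and 32.0 CPM in the sham libraries. Iars measured 67.5, 27.3, 18.6 and 34.5 CPM after RYGB and 7.9, 9.9, 7.2, 10.7 and 17.7 CPM after sham. Both had groups apart without passing, at 1.31 ± 0.26 (adjusted p = 0.0535) for Farsb and 1.61 ± 0.35 (adjusted p = 0.0567) for Iars. In 7 members all RYGB libraries were above all sham libraries and in none below, against 5.88% and 1.69% of all genes. The median difference was 0.83 over the cytosolic, 0.50 over the mitochondrial and 0.15 over all genes. Median-of-ratios scaling moved the median of all genes by −0.16 and left 13 genes higher and 37 lower, against 14 higher and 24 lower without it, and Nars did not pass.

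RYGB library 1 held the highest duodenal value of Nars, Farsb and Iars. Crypt and dividing cell markers, 7 of 9 listed, summed to 48.1 to 669.0 CPM in RYGB and 28.7 to 43.7 CPM in sham libraries, and Paneth cell markers, 4 of 6 listed, to 60.9 to 400.1 CPM in RYGB and 22.7 to 40.5 CPM in sham libraries. Acinar markers, 18 of 21 listed, summed to 28.6 to 15830 CPM in RYGB and 73.2 to 91540 CPM in sham libraries. The part of these cells was not tested, and the fit without the acinar-rich libraries, where no gene passed, cannot show it. No gene of the 7 lists of translation and related genes passed in duodenum.

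In ileum no member and no gene at all passed (limma), with 438 of 12041 genes, and 1 of 36 members, at an unadjusted p below 0.05. That member was Nars again, at 397.2 and 577.7 CPM in RYGB libraries and 167.9, 166.7, 180.5, 285.4 and 226.1 CPM in sham libraries. Both RYGB values lay above all sham values (1.25 ± 0.29, adjusted p = 0.935), as in 3.15% of all genes, while 4.94% of all genes had both below and no member did. Gars had 128.8 and 148.4 CPM after RYGB and 63.5, 47.1, 65.7, 153.9 and 60.9 CPM after sham, where sham library 4 alone reached the RYGB values. Cars had 31.1 and 28.4 CPM after RYGB and 15.4, 13.8, 15.6, 37.8 and 13.4 CPM after sham, with sham library 4 again highest. Sham library 4 had 4229 CPM of crypt and dividing cell markers, against 27.6 to 100 CPM in the other sham libraries. Without it the differences were 1.38 ± 0.22 for Nars (adjusted p = 0.0528), 1.22 ± 0.20 for Gars (adjusted p = 0.0568) and 0.99 ± 0.20 for Cars (adjusted p = 0.0872).

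In muscle no member and no gene at all passed (limma), with 812 of 11594 genes, and 3 of 36 members, at an unadjusted p below 0.05. Lars2 was the furthest from 0, at 233.0, 207.6, 176.1 and 336.3 CPM in RYGB libraries, against 414.8, 545.2, 498.4 and 556.7 CPM in sham libraries. All RYGB values were below all sham values, opposite in sign to WAT (−1.11 ± 0.23, adjusted p = 0.30). The difference between muscle and WAT was not tested. Farsb had 121.9, 141.5, 113.0 and 102.7 CPM after RYGB and 83.7, 82.5, 94.5 and 99.1 CPM after sham, with groups apart (0.40 ± 0.17, adjusted p = 0.682). Lars2 and Farsb were the only members without overlap, against 1.96% of all genes below and 1.91% above. Mars2 gave 19.5, 17.1, 23.1 and 13.2 CPM in RYGB libraries and 15.7, 11.1, 12.9 and 12 CPM in sham libraries, with overlap (0.45 ± 0.20, adjusted p = 0.71). The median difference was −0.12 over the cytosolic and −0.15 over the mitochondrial members, against 0.00 over all genes.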

How the data were processed

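The authors deposited gene-level CPM, 1 table per tissue, rounded to 1 decimal. HTSeq and GRCm38 are named in the submitters' processing notes, while the annotation release and strand setting were not given in the sources used here. In each table every gene reaches 1 CPM in a number of libraries no smaller than its smaller group. Repeated lines with identical values were dropped, 339 in ileum and 374 in WAT, and 2 lines in ileum and 6 in liver had no identifier. There were 0 identical library pairs.

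Samples were grouped by title and surgery label. Replicate numbers name different animals in RYGB and sham mice. Each tissue was fitted with limma 3.58.1 in R 4.3.3 (trend and robust options) on log2(CPM + 1), pseudocount 1, with surgery as the only term and a threshold of 0.05 after adjustment. Differences between tissues were fitted with the animal as a block. As the tables hold CPM, no count test was run. Members and lists were chosen with earlier results of these data known. Values per library are given for members past the threshold in a tissue or, where these are fewer than 3, for the 3 with the smallest p, and for the members named in tissue differences. Dars and Lars2 in liver were added after their values were seen. Other members are named by level or by the size of their difference. Per list, up to 4 genes with the smallest adjusted p among those past the threshold are named. Exon lengths and overlaps come from GENCODE annotation of GRCm38, and Python 3.11.15, pandas 2.3.3 and matplotlib 3.10.9 were used. The fits were tested on simulated data. Alternatives were median-of-ratios scaling, a pseudocount of 0.1, a mean CPM of at least 5, library weights, a block for the replicate number, leaving out each library or animal and the duodenum without acinar-rich libraries. Removal of the exon-length trend (lowess span 0.3) and tissue differences without the animal term were added after seeing the data.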

Additional observations from a re-analysis of the deposited data

Results flagged for a closer look

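Of 69 groups of 4 or 5 values of the members given per library, 5 held a library far from the others by Dixon's test, which chance does in about 5% of groups. In jejunum these were Cars, at 9.4 CPM in sham library 1, and Mars, at 9.8 CPM in sham library 5. In ileum Gars, at 153.9 CPM, and Cars, at 37.8 CPM, stood out in sham library 4, the library with the most Paneth and crypt marker transcripts. In WAT, Fars2 stood at 28.4 CPM in RYGB library 3, below the rest of its group.

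The RYGB differences of 4 cytosolic members were lower in WAT than in liver by the test of the difference, Hars by a log2 value of −1.73, Eprs of −1.57, Lars of −1.56 and Qars of −2.40. Of all genes 9.51% were lower in this comparison, and none of the 4 passed with median-of-ratios scaling or a pseudocount of 0.1.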

How the results depend on the processing

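Signs were checked for the members past the threshold in each comparison or, where fewer than 3 passed, for the 3 with the smallest p. None of these differences changed sign under the alternatives. The signs of the other members, some with differences near 0, were not checked. In WAT, 12 to 17 members passed when each library was left out, against 15, and 24 passed with the exon-length trend removed. Over all genes of WAT, leaving out a library gave 1391 to 2130 higher and 2545 to 4021 lower, against 1812 and 3341. Removing the length trend gave 2441 higher and 2392 lower. In jejunum, 5 to 10 passed when each library was left out, against 9, with 5 without RYGB replicate 3 or sham replicate 4. Of all genes, 252 were higher and 313 lower without RYGB replicate 3, and 278 and 307 without sham replicate 4, against 697 and 693. The replicate numbers do not pair the samples (correlations of same-numbered libraries ran from −0.352 to 0.556), and with the replicate block 2 members passed in jejunum, 5 in duodenum, 10 in ileum and 0 in liver. Calls over all genes moved too with this block. In jejunum 198 genes were higher and 276 lower, and in duodenum 301 and 140, against 14 and 24. In ileum 419 were higher and 178 lower, against 0 and 0, and in liver 5 and 2, against 209 and 267. In liver, against 3 calls, 9 members passed with median-of-ratios scaling, 6 at a mean CPM of at least 5, 17 with library weights (where 1583 genes were higher and 1675 lower, against 209 and 267), 8 with the exon-length trend removed and 0 to 17 when each library was left out. Over all genes of liver, median-of-ratios scaling gave 513 higher and 479 lower, and a mean CPM of at least 5 gave 252 and 377. Removing the length trend gave 373 and 462. Leaving out a library gave 3 to 1379 higher and 0 to 874 lower. In duodenum, against 1, 0 passed with median-of-ratios scaling, with the exon-length trend removed or without acinar-rich libraries, 2 at a mean CPM of at least 5, 13 with library weights (where 1576 genes were higher, against 14) and 0 to 10 when each library was left out. Over all genes of duodenum, leaving out a library gave 0 to 820 higher and 1 to 162 lower, and a mean CPM of at least 5 gave 68 and 37. No gene of duodenum passed without the acinar-rich libraries. For WAT minus liver, against 4, 1 other member, Dars, passed with median-of-ratios scaling, in the opposite direction, 0 with a pseudocount of 0.1, 7 without the animal term and 0 to 14 when each animal was left out. Of all genes in that comparison, 122 to 580 were higher and 256 to 1609 lower when each animal was left out, against 327 and 923. A pseudocount of 0.1 gave 256 and 613, and the fit without the animal term 440 and 975. For jejunum minus duodenum, 0 to 2 passed when each animal was left out, where 16 to 73 of all genes were higher and 43 to 249 lower. The causes were not tested. In ileum, muscle and jejunum minus liver no other alternative gave a member call. The unknown depth of the CPM limits the members with low values most.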
